A study of Rattus norvegicus with 17 samples.

Results

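The genes described here are Kcnk1, Kcnk2, Kcnk3, Kcnk12 and Kcnk18, which encode two-pore potassium leak channels. They were taken by name from the 32883 gene rows of single-cell count tables of rat dorsal root ganglion neurons, and all 5 were found. The two-pore family list held 15 genes, of which 14 had a row in the counts. The neurons came from L4 and L5 ganglia of adult male SD rats that carried no stated injury, drug or transgene. Single neurons were picked by mouth pipette under a microscope, and a modified Smart-seq2 protocol gave counts of unique molecular identifiers (UMIs, tags that count each copied RNA molecule once) from the 3′ end of transcripts. The labels describe 1 group of 17 batches with 1080 cells and name no treatment, so the comparisons below are between kinds of neuron within batches. The protocols describe both a short and a multi-day plating, and no label says which batch had which or which rats a batch holds.

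Two-pore channels carry the background potassium current that sets the resting potential of a neuron. Each channel is a dimer in which every subunit brings a pair of pore loops, and most members pass current at rest. Temperature, membrane stretch, extracellular acid, lipids and calcium signalling change how open they are. In sensory neurons they are known for setting how readily nociceptors and cold-sensing neurons fire.

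Batch 21 was left out because its 96 columns were identical to those of batch 20. In the other 16 batches, 967 of 1040 cells had at least 2000 detected genes. Those cells held 4307 to 1514406 UMIs, with a median of 139374, and no cell name was shared between batches. A cell was put in a gate when every gate gene had at least 3 UMIs and at least 30 CPM, where CPM is the UMIs of a gene scaled to a common library size. Of the 967 cells, 448 passed 1 gate, 443 passed none and 76 passed 2 or more. Cells in 1 gate numbered 202 for Clmp, 89 for Sst+Nppb, 51 for Ntsr1+Chrna3, 46 for Gzmbl3+Lpar3, 23 for Th, 17 for Trpm8, 17 for Nmu+Lad1 and 3 for Pvalb+Vsnl1. UMIs were summed over the cells of a gate in a batch where there were at least 3 such cells. The 5 gates with sums in at least 3 batches (Clmp, Sst+Nppb, Th, Ntsr1+Chrna3 and Gzmbl3+Lpar3) gave 47 sums of 377 cells, and their levels are given as CPM of libraries scaled by edgeR's TMM factors. The batch is the replicate, and because no label ties a batch to its animals, p-values measure only the spread between batch sums.

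The gates are named by their genes and not by cell type. Neuronal marker genes summed to 4321 to 6036 CPM in the means of the 5 gates. The Sst+Nppb gate had Osmr at 69.5 ± 47.2 CPM and the itch receptor Il31ra at 5.72 ± 12.1 CPM (SD, n = 11), and also Calca at 1578 ± 531 CPM. The other listed markers of this gate were near 0 there and not above the Gzmbl3+Lpar3 gate, with Cysltr2 at 0.255 CPM in the Sst+Nppb gate and 0.462 CPM in the Gzmbl3+Lpar3 gate, and Htr1f at 0.327 CPM in the Sst+Nppb gate and 1.86 CPM in the Gzmbl3+Lpar3 gate. The Clmp gate had Calca at 1819 ± 366 CPM and Kit at 212 ± 95.7 CPM (SD, n = 15). In the Th gate Slc17a8, a marker of low-threshold C-fibre mechanoreceptors, was at 0 in each of 3 batches, and Tafa4 averaged 2.68 ± 1.30 CPM, against gate means of 1.45 to 3.45 CPM elsewhere. The 9 glial markers summed to 928 to 1062 CPM in the gate means, of which Pmp22 alone gave 751 to 890 CPM. Immune markers averaged 6.89 to 37.9 CPM and vessel markers 1.85 to 15.4 CPM. The part of these cells in the channel values was not tested beyond the values without glia-rich cells given with the processing.

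The channels that stood out in the Clmp gate were Kcnk2 and Kcnk3, which were higher there, and Kcnk18 and Kcnk1, which were lower there. Against the mean of the other 4 gates, 4 of the 5 channels were called at an adjusted p under 0.05, where 16.4% of all 12588 genes tested were called in either direction (9.43% higher and 6.97% lower). The 5 channels were chosen with earlier results of these data known, so that count is no independent contrast with this share. The test was edgeR's quasi-likelihood F-test with gate and batch as terms and Benjamini-Hochberg adjustment over all genes tested. Kcnk12, the most abundant of the 5, was not called in that comparison.

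Kcnk3 encodes TASK-1, a channel that closes when the outside of the cell turns acid. Its level in the Clmp gate ran from 7.13 to 58.3 CPM over 15 batches, with a median of 24.4 CPM. It ran from 0 to 13.6 CPM with a median of 1.89 CPM in the Sst+Nppb gate, in the Ntsr1+Chrna3 gate from 0 to 6.26 CPM with a median of 0.769 CPM, and in the Gzmbl3+Lpar3 gate from 0 to 3.02 CPM with a median of 0.589 CPM. The 3 batches of the Th gate had 0.991, 2.73 and 3.39 CPM. The Clmp gate was thus the high one, and its range did not overlap those of the Ntsr1+Chrna3, Gzmbl3+Lpar3 and Th gates. How many of all genes have such separate ranges was not counted. Its mean of 26.7 ± 17.5 CPM (SD, n = 15) stood against a mean of 2.22 CPM over the other 4 gates, a log2 fold change of 3.77 ± 0.47 (SE, edgeR adjusted p = 1.40e-07), and Kcnk3 was higher in 14 of 14 batches that held both. Kcnk3 was lower in the Gzmbl3+Lpar3 gate than in the others, where 12.8% of all genes were called (7.28% higher and 5.48% lower). That log2 fold change was -2.20 ± 0.76 (SE, edgeR adjusted p = 0.0483, lower in 7 of 7 batches), and the call was lost on leaving out any 1 of 11 batches.

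Kcnk2 encodes TREK-1, which opens with membrane stretch, warmth and lipids. In the Clmp gate its level ran from 3.57 to 64.8 CPM, with a median of 26.9 CPM. It ran from 0 to 10.6 CPM with a median of 1.07 CPM in the Sst+Nppb gate, and in the Ntsr1+Chrna3 gate from 0 to 8.60 CPM with a median of 0.497 CPM. The Gzmbl3+Lpar3 gate ran from 0.377 to 10.6 CPM with a median of 2.30 CPM. The Th gate was split, with 0.991, 21.8 and 38.6 CPM in its 3 batches, so 2 of them lay inside the range of the Clmp gate. The log2 fold change in the Clmp gate against the others was 2.84 ± 0.47 (SE, edgeR adjusted p = 1.93e-05), and 13 of 14 batches went that way. The Clmp mean was 29.6 ± 18.3 CPM (SD, n = 15), against 7.47 CPM over the other 4 gates. In the Ntsr1+Chrna3 gate, Kcnk2 had a log2 fold change of -2.21 ± 0.65 (SE) and lay below the other gates in 11 of 11 batches, but it was not called (edgeR adjusted p = 0.0753).

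Kcnk18 encodes TRESK, which opens when calcium activates the phosphatase calcineurin. It was at 0 in 7 of the 15 Clmp sums, and the highest of them had 0.994 CPM. Those 15 sums held 11 Kcnk18 UMIs in all. In the Ntsr1+Chrna3 gate it ran from 5.96 to 25.4 CPM over 11 batches, with a median of 11.6 CPM. The Th gate had 8.18, 10.9 and 11.5 CPM, and the Gzmbl3+Lpar3 gate ran from 1.15 to 17.4 CPM with a median of 6.41 CPM. None of these 3 gates overlapped the Clmp gate, which was likewise not counted over all genes. The Sst+Nppb gate did, with 3 of 11 sums at 0, a median of 1.64 CPM and a highest value of 25.7 CPM, in batch 27. The lowest Gzmbl3+Lpar3 value and the highest Clmp value were both from batch 32, with 1 Kcnk18 UMI each. Those 2 ends thus differ only by library size. In the Clmp gate the log2 fold change against the others was -4.94 ± 0.61 (SE, edgeR adjusted p = 1.14e-07), lower in 13 of 14 batches. In the Ntsr1+Chrna3 gate, where 1.45% of all genes were called (0.85% higher and 0.604% lower), Kcnk18 was higher than in the other gates by 2.34 ± 0.49 on the log2 scale (SE, edgeR adjusted p = 0.00785, higher in 10 of 11 batches). It was the only one of the 5 called there in the fit of 5 gates.

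The promoter table was matched by symbol for 2 of the 5 channels, Kcnk2 and Kcnk18, and not for Kcnk1, Kcnk3 and Kcnk12. The start-site sequences of Kcnk2 and Kcnk18 are shown because only these had an entry. RefSeq's GRCr8 table gives 1 for Kcnk18, at chr1:268360488-268360787 on the + strand, and 2 for Kcnk2, at chr13:103438593-103438892 and chr13:103494637-103494936 on the - strand. Each runs 5′ to 3′ from 250 bases before to 50 after the start, with CG dinucleotides in capitals. The Kcnk2 starts are labelled first and second by coordinate, and on the - strand the second lies upstream of the first.
Kcnk18: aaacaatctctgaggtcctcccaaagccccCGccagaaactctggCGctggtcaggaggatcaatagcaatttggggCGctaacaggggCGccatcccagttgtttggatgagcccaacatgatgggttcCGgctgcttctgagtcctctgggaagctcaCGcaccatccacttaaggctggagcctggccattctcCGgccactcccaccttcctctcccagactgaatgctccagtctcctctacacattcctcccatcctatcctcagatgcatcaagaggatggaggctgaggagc
Kcnk2, first start: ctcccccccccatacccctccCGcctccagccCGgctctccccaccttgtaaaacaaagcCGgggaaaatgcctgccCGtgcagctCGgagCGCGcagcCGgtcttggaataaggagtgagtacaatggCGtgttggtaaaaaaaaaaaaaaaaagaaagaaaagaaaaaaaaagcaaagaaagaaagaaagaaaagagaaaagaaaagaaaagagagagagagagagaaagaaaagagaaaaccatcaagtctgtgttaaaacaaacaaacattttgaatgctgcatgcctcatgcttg
Kcnk2, second start: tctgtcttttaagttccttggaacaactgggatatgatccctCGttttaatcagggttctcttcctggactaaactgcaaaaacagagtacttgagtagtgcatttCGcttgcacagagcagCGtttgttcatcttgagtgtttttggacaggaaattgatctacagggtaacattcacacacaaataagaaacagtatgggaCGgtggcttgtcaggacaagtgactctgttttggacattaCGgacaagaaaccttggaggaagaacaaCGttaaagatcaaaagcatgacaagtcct
The Kcnk18 sequence holds 7 CG dinucleotides, and the Kcnk2 ones hold 9 and 6, where the median over 33469 rat promoters of the table is 7. At least 7 were held by 51.4% of those promoters, at least 9 by 44.3% and at least 6 by 56.3%. Because the UMIs came from the 3′ end of transcripts, the counts of Kcnk2 do not tell its starts apart.

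Kcnk1 encodes TWIK-1, a weak inward rectifier that gives little current at the cell surface. Its mean was lowest in the Clmp gate, at 6.47 ± 8.47 CPM (SD, n = 15), with a range of 0 to 33.1 CPM and a median of 5.00 CPM. The Sst+Nppb gate had a median of 4.08 CPM and a range of 0 to 41.1 CPM, so its median lay under that of the Clmp gate and the ranges overlapped. The Gzmbl3+Lpar3 gate ran from 10.3 to 27.5 CPM, the Ntsr1+Chrna3 gate from 8.72 to 45.4 CPM, and the Th gate had 48.5, 49.7 and 65.8 CPM, above every sum of the other 4 gates. How often the Th sums lie above all others was not counted over all genes. The log2 fold change in the Clmp gate was -2.14 ± 0.48 (SE, edgeR adjusted p = 0.00126), lower in 12 of 14 batches. In the Th gate it was 1.98 ± 0.82 (SE) and higher in 3 of 3 batches, but not called (edgeR adjusted p = 0.39). The Th comparison rested on 12 cells and called 0.0556% of all genes (0.0159% higher and 0.0397% lower), with 1245 genes at an unadjusted p under 0.05.

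Kcnk12 encodes THIK-2, a subunit that is largely held inside the cell. It was found in every one of the 47 sums. Its mean was 130.3 ± 40.0 CPM in the Th gate (SD, n = 3), 101 ± 48.5 CPM in the Clmp gate (SD, n = 15), 101.2 ± 41.6 CPM in the Gzmbl3+Lpar3 gate (SD, n = 7), 72.7 ± 37.0 CPM in the Ntsr1+Chrna3 gate (SD, n = 11) and 53.2 ± 29.3 CPM in the Sst+Nppb gate (SD, n = 11). All 5 ranges overlapped. In the Sst+Nppb gate, where 5.62% of all genes were called (4.04% higher and 1.58% lower), it was lower than in the others by a log2 fold change of -0.70 ± 0.20 (SE, edgeR adjusted p = 0.0239), in 7 of 11 batches. That call was lost without batch 20, 25, 26 or 29, with adjusted p of 0.0839, 0.058, 0.065 and 0.0542 in that order.

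**Figure D1:**
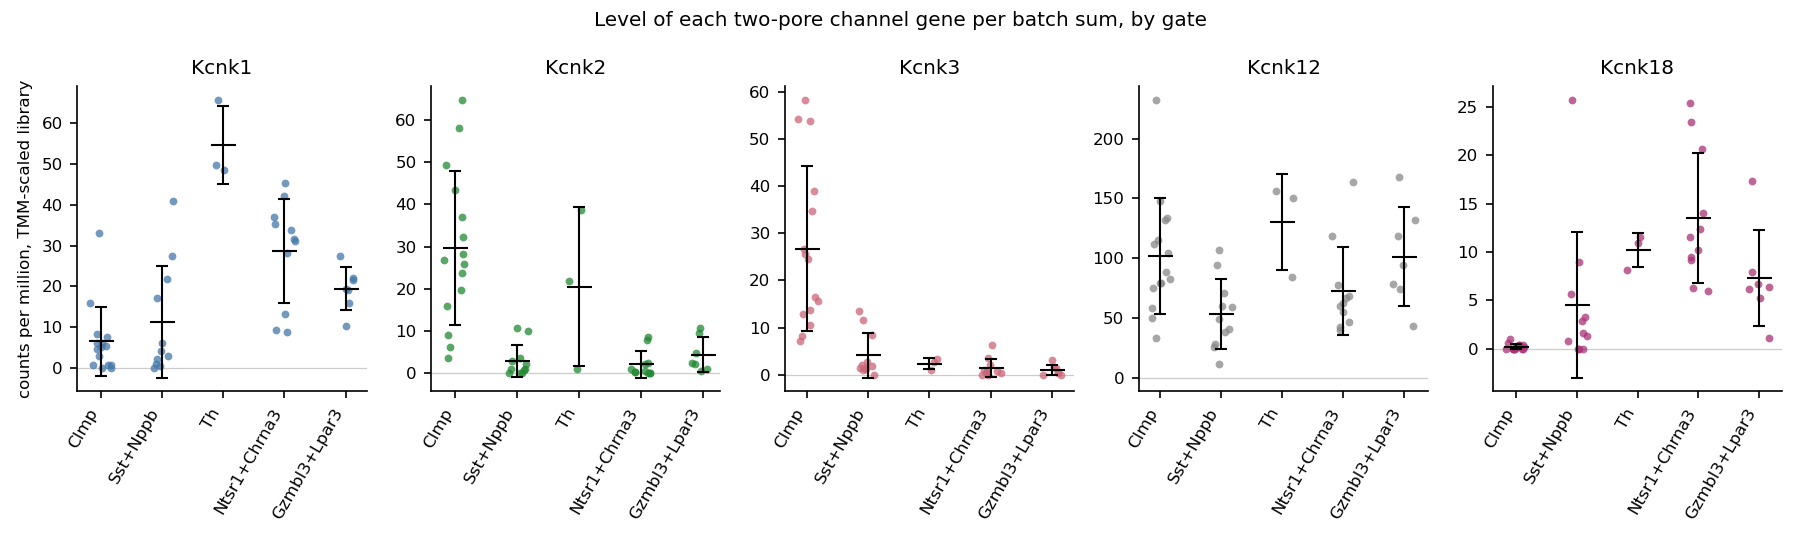
Level of each channel gene in each batch sum, in CPM, with 1 panel per gene and 1 column per gate; points are batches and bars are the mean ± SD over batches. Kcnk2 and Kcnk3 are highest in the Clmp column, where Kcnk18 stays under 1 CPM, while Kcnk12 lies between 11.6 and 233 CPM in all columns.

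**Figure D2:**
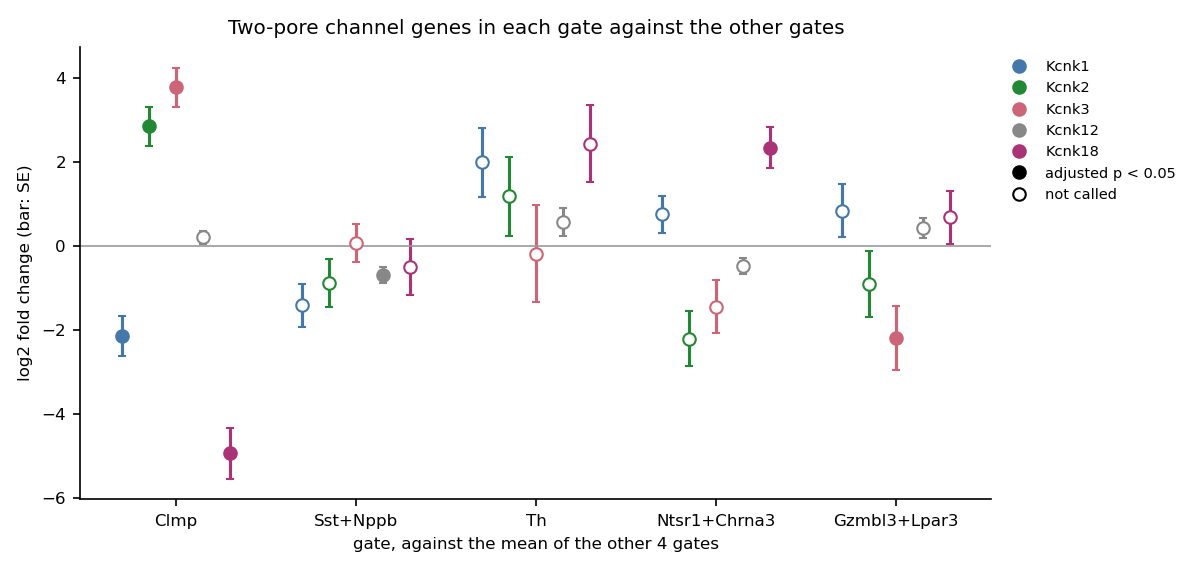
Log2 fold change of each gene in each gate against the mean of the other 4 gates, with its SE from edgeR; filled points have an adjusted p under 0.05. The Clmp gate has 4 filled points, 2 above and 2 below 0, the Th gate has none and the other 3 gates have 1 each.

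Pairs of gates showed which neighbours in each order differed beyond the spread between batches. Among 10 pairs of gates, Kcnk18 was called in 5, Kcnk1, Kcnk2 and Kcnk3 in 3 each and Kcnk12 in 2. For Kcnk18, the Clmp gate was below the Ntsr1+Chrna3 gate by a log2 fold change of -5.82 ± 0.65, below the Th gate by -5.89 ± 0.97 and below the Gzmbl3+Lpar3 gate by -4.49 ± 0.75 (SE; 13.1%, 1.74% and 20.9% of all genes were called in these comparisons). The Sst+Nppb gate was above the Clmp gate by 3.55 ± 0.71 (9.51% of all genes called) and below the Ntsr1+Chrna3 gate by -2.27 ± 0.64 (SE, edgeR adjusted p = 0.0245, 6.42% of all genes called). No pair among the Th, Ntsr1+Chrna3 and Gzmbl3+Lpar3 gates was called for any of the 5 channels. Of all genes, 0.00794% were called in the Th gate against the Ntsr1+Chrna3 gate, 3.12% in the Th gate against the Gzmbl3+Lpar3 gate and 8.17% in the Ntsr1+Chrna3 gate against the Gzmbl3+Lpar3 gate. None of the channels was called in the Sst+Nppb gate against the Th gate, where 1.45% of all genes were called. For Kcnk18 the log2 fold change in the Ntsr1+Chrna3 gate against the Gzmbl3+Lpar3 gate was 1.33 ± 0.71 (SE, edgeR adjusted p = 0.258), although Kcnk18 was higher in 5 of 5 batches with both.

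Kcnk2 and Kcnk3 shared one pattern over pairs. Each was called higher in the Clmp gate than in the Ntsr1+Chrna3 gate (log2 fold change 4.04 ± 0.64 for Kcnk2 and 4.17 ± 0.62 for Kcnk3), than in the Gzmbl3+Lpar3 gate (3.01 ± 0.79 for Kcnk2 and 4.77 ± 0.76 for Kcnk3), and each was called lower in the Sst+Nppb gate than in the Clmp gate (-2.98 ± 0.60 for Kcnk2 and -2.96 ± 0.58 for Kcnk3; SE throughout). The Clmp gate against the Th gate was called for neither. That log2 fold change was 3.16 ± 1.07 for Kcnk3 (SE, edgeR adjusted p = 0.143) and 1.34 ± 0.98 for Kcnk2 (SE, edgeR adjusted p = 0.632). Kcnk1 was called lower in the Clmp gate than in the Ntsr1+Chrna3, Gzmbl3+Lpar3 and Th gates, and its Clmp and Sst+Nppb levels were not told apart (log2 fold change 0.58 ± 0.55 in the Sst+Nppb gate against the Clmp gate, SE, edgeR adjusted p = 0.619). Kcnk12 was called lower in the Sst+Nppb gate than in the Clmp gate (-0.72 ± 0.21) and the Gzmbl3+Lpar3 gate (-0.89 ± 0.26, SE; 8.38% of all genes called).

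Trpm8 encodes the cold receptor, and the Trpm8, Nmu+Lad1 and Pvalb+Vsnl1 gates had too few cells for the fit. Their values are plain CPM without scaling factors. In the 17 Trpm8 cells from 9 batches, Kcnk2 was at 0 in 1 batch, had a median of 31.2 CPM and reached 156 CPM. That median is batch 28-1, with 1 Kcnk2 UMI among 32095, and the highest value is 1 cell of batch 26. The remaining batches had 4.83, 7.77, 10.6, 32.4, 50.5 and 121 CPM, so no typical level can be read from them. Kcnk3 in those cells was at 0 in 4 of 9 batches and had a median of 3.57 CPM, which is 1 UMI in 1 cell of batch 34. Kcnk1 was at 0 in 5 batches and reached 25.5 CPM, and Kcnk18 was at 0 in 6 and reached 33.3 CPM. The 17 Nmu+Lad1 cells from 12 batches had Kcnk1 between 27.3 and 202 CPM, with a median of 43.5 CPM. In the same cells Kcnk18 was at 0 in 10 of 12 batches, Kcnk2 in 10 and Kcnk3 in 9. The 3 Pvalb+Vsnl1 cells had 49 Kcnk1 UMIs among 461513 and no Kcnk2 UMI. Cells in no gate had a pooled Kcnk1 level of 33.5 CPM and a pooled Kcnk12 level of 73.5 CPM.

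Some cells passed a pair of gates and were left out of the sums. The 23 cells that passed Trpm8 and Clmp had Kcnk2 at 30.1 CPM, Kcnk3 at 15.7 CPM and a single Kcnk18 UMI among 8417347. The 21 cells that passed Sst+Nppb and Clmp had Kcnk2 at 20.4 CPM, Kcnk3 at 16 CPM and likewise 1 Kcnk18 UMI, among 4500843. The 5 cells that passed Pvalb+Vsnl1 and Clmp had Kcnk1 at 124 CPM and Kcnk3 at 41.4 CPM, with 53 Kcnk3 UMIs in 3 of the cells. These are pooled values over few cells and carry no test.

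A fit of all 8 gates, which took sums of at least 1 cell and assigned cells of several gates to 1, was chosen after the data were seen. Sums of 1 cell stood as replicates in it, so p-values of the small gates partly measure the spread between single cells. In this fit Kcnk2 was higher in the Trpm8 gate than in the other 7 by a log2 fold change of 3.34 ± 0.48 (SE, edgeR adjusted p = 2.29e-07, higher in 11 of 13 batches, 4.12% of all genes called). The Trpm8 sums of this fit held 35 cells, while 17 cells passed this gate alone. Of the 42 cells that passed Trpm8, 23 also passed Clmp. Kcnk1 was higher in the Nmu+Lad1 gate, with 12 sums of 20 cells in all, by 1.44 ± 0.34 (SE, edgeR adjusted p = 0.00209, higher in 11 of 12 batches, 10.8% of all genes called), where Kcnk2 had -2.06 ± 0.69 (SE, edgeR adjusted p = 0.0393). In the Pvalb+Vsnl1 gate, which held 5 sums of 6 cells in all, Kcnk1 was higher by 2.18 ± 0.50 (SE, edgeR adjusted p = 0.00133, higher in 5 of 5 batches, 8.55% of all genes called). Kcnk3 was called there too, at 2.90 ± 0.78 (SE, edgeR adjusted p = 0.00838), but it was higher in only 2 of 5 batches, and 5 of the 8 cells that passed this gate also passed Clmp. Kcnk12 had -1.34 ± 0.45 in that gate (SE, edgeR adjusted p = 0.0456, lower in 5 of 5 batches). Kcnk1 was also called higher in the Th gate in this fit, at 1.21 ± 0.34 (SE, edgeR adjusted p = 0.0353, higher in 10 of 13 batches, 2.28% of all genes called). Kcnk18 was called higher in the Gzmbl3+Lpar3 gate at 2.06 ± 0.56 (SE, edgeR adjusted p = 0.0036, 24.1% of all genes called), though with 7 batches higher and 7 lower. Kcnk1, Kcnk2, Kcnk3 and Kcnk18 were called in the Clmp gate (7.57% of all genes called) in the same directions as in the fit of 5 gates. Kcnk1 was called lower in the Sst+Nppb gate, at a log2 fold change of -1.67 (edgeR adjusted p = 0.00123, 9.65% of all genes called), as were Kcnk2 and Kcnk12. In the Ntsr1+Chrna3 gate, where 3.85% of all genes were called, Kcnk18 was higher by 2.24 (edgeR adjusted p = 0.00251) and Kcnk3 was called lower (edgeR adjusted p = 0.0391).

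Depth differed between gates, so the share of cells with a UMI was taken after thinning each cell to 30000 UMIs, which kept 419 gated cells. Intervals are exact 95% binomial ones and cover counting error only. Kcnk18 was found in 1 of 188 Clmp cells (0.532%, interval 0.0135 to 2.93%), against 13 of 51 Ntsr1+Chrna3 cells (25.5%, interval 14.3 to 39.6%). The median depths before thinning were 240672 UMIs in the Clmp cells and 351806 in the Ntsr1+Chrna3 cells. With all UMIs the shares were 4.95% of 202 Clmp cells and 54.9% of 51 Ntsr1+Chrna3 cells. At 30000 UMIs the Clmp share of Kcnk18 was the lowest of any gate. It lay inside the intervals of the Nmu+Lad1 gate (1 of 17 cells, 0.149 to 28.7%) and the Trpm8 gate (1 of 15 cells, 0.169 to 31.9%). Thinned to 10000 UMIs, Kcnk18 was found in 2 of 202 Clmp cells and 0 of 17 Trpm8 cells, so that rank did not hold. The level that stray RNA gives was not measured for any of the channels. At 30000 UMIs, Kcnk3 was found in 61 of 188 Clmp cells (32.4%, interval 25.8 to 39.6%), against 1 of 46 Gzmbl3+Lpar3 cells (2.17%, interval 0.055 to 11.5%). None of the 17 Nmu+Lad1 cells had a Kcnk3 UMI at this depth. A count of 0 allows a share of up to 17.6% when taken as 3 counts, and the exact interval reaches 19.5%. With all UMIs, 3 of these 17 cells had one. Kcnk2 was found in 77 of 188 Clmp cells (41.0%), 6 of 15 Trpm8 cells (40.0%) and 6 of 21 Th cells (28.6%). Kcnk1 was found in 10 of 17 Nmu+Lad1 cells (58.8%), 11 of 21 Th cells (52.4%), 25 of 51 Ntsr1+Chrna3 cells (49.0%) and 24 of 188 Clmp cells (12.8%). Kcnk12 ran from 62.8% of Sst+Nppb cells to 95.2% of Th cells.

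**Figure D3:**
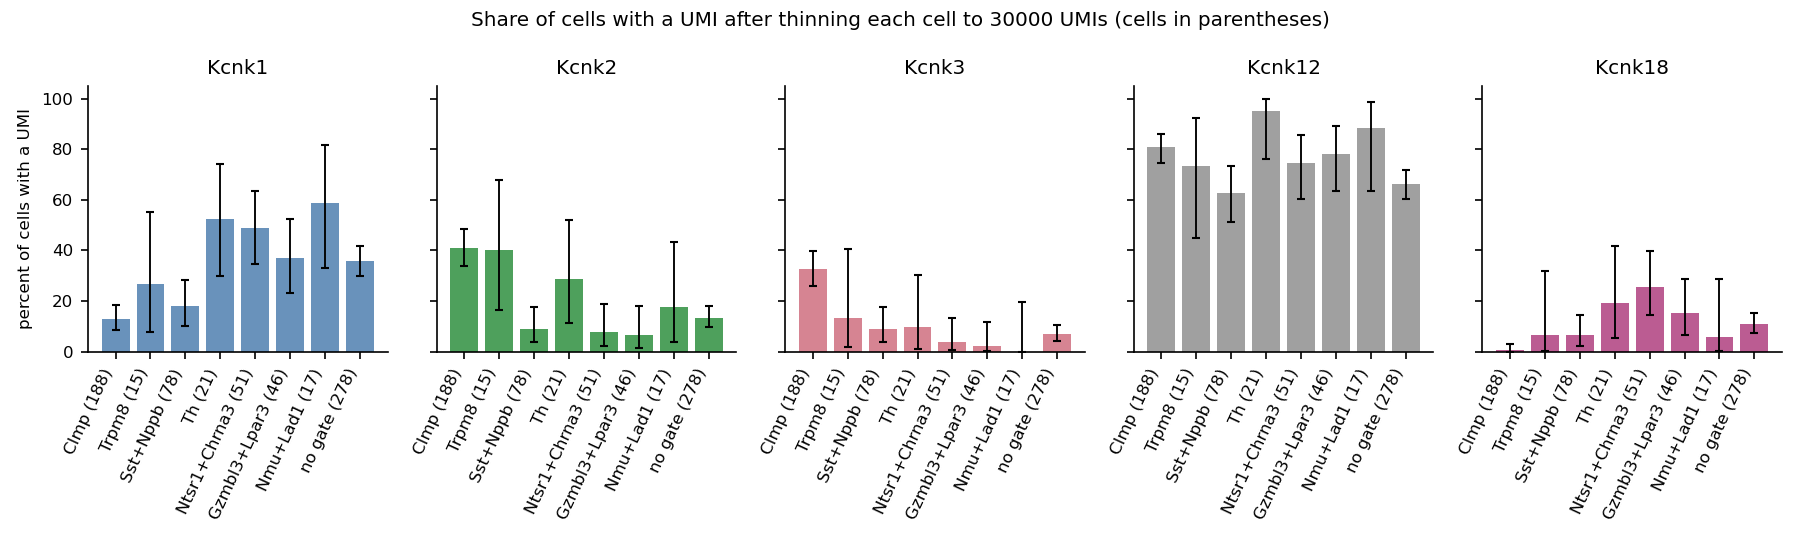
Percent of cells with at least 1 UMI of each gene after each cell was thinned to 30000 UMIs, by gate, with exact 95% binomial intervals and the number of cells in parentheses; the 3 Pvalb+Vsnl1 cells are not drawn. Kcnk12 is found in over 60% of cells of every gate drawn. Kcnk2 is about as frequent in the Trpm8 column (40.0%) as in the Clmp column (41.0%), and Kcnk3 is most frequent in the Clmp column. Kcnk18 is lowest in the Clmp column (0.532%) and also low in the Nmu+Lad1 (5.88%), Sst+Nppb (6.41%) and Trpm8 (6.67%) columns.

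How often a pair of channels was found in the same cell was counted from cells with UMIs of both. Cells of a batch are not replicates, so these counts carry no p. Kcnk3 and Kcnk18 were both found in 3 of 419 thinned cells, where their shares in each batch would give 5.39 if the genes were unrelated. Taken within each batch and gate, the same count would be 1.55, so the observed count lay between these values and differed from each by a few cells. Kcnk2 and Kcnk18 were together in 5 cells, against 7.53 within batches and 4.23 within batches and gates. Kcnk1 and Kcnk18, which were both low in the Clmp gate, were together in 13 cells, against 9.46 within batches and 13.7 within batches and gates. Kcnk2 and Kcnk3 were together in 26 cells, against 21.3 within batches and 28.3 within batches and gates. Inside the Clmp gate alone they were together in 24 of 188 cells, against 24.7 if unrelated in a batch, while 53 cells had Kcnk2 alone, 37 had Kcnk3 alone and 74 had neither.

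Kcnk1 and Kcnk3 were together in 4 thinned cells, against 17.4 within batches and 9.12 within batches and gates. With all UMIs of each cell, the 2 genes were together in 83 cells, against 93.8 within batches and 79.9 within batches and gates. Cells differ in depth there, which raises joint counts of any pair, so these values cannot tell whether the shortfall inside gates holds. At full depth Kcnk3 and Kcnk18 were together in 24 of 448 gated cells, against 33.5 within batches and 24.4 within batches and gates. Kcnk2 and Kcnk3 inside the Clmp gate were together in 96 of 202 cells at full depth, against 84.0, and deeper cells have more UMIs of every gene.

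**Figure D4:**
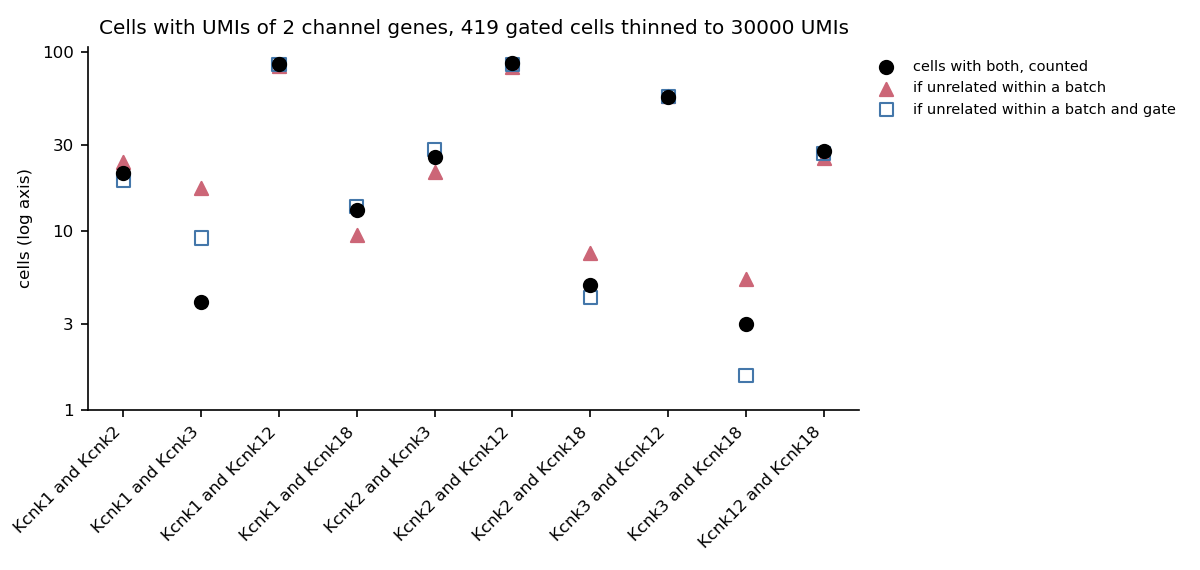
Number of gated cells, thinned to 30000 UMIs, with UMIs of both genes of each pair on a log axis (filled circles), beside the number that the shares within a batch (triangles) or within a batch and gate (squares) would give if unrelated. For Kcnk3 and Kcnk18 the count of 3 lies under the triangle at 5.39 and over the square at 1.55, and pairs with Kcnk12 lie on both.

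Of the 14 family genes with a row, 10 had enough UMIs to be tested. Kcnk6 and Kcnk9 had no UMI in any of the 967 cells, Kcnk16 had 8 UMIs in 4 cells and Kcnk5 had 80 UMIs in 23 cells. Kcnk17 was not analysed here. In the Clmp gate 2 of 10 tested members were higher and 3 lower, with a median log2 fold change of -0.12 over the list and 0.05 over all genes. These calls include the 4 channels named above, and the list too was chosen with earlier results of these data known. The shares of all genes called, to be set beside the counts of this small list, were 16.4% in the Clmp gate, 5.62% in the Sst+Nppb gate, 12.8% in the Gzmbl3+Lpar3 gate, 1.45% in the Ntsr1+Chrna3 gate and 0.0556% in the Th gate. The fifth call was Kcnk13, the gene of THIK-1, at 0.317 ± 0.573 CPM in the Clmp gate (SD, n = 15) and a mean of 4.29 CPM in the other 4, a log2 fold change of -2.98 ± 0.90 (SE, edgeR adjusted p = 0.0183). Kcnk13 was at 0 in 10 of 15 Clmp sums and also in 8 of 11 Sst+Nppb sums. Its median was 1.48 CPM in the Gzmbl3+Lpar3 gate (highest 50.6 CPM), 2.37 CPM in the Ntsr1+Chrna3 gate and 2.03 CPM in the Th gate. Of the 10, 1 was higher and 1 lower in the Sst+Nppb gate. The higher one was Kcnk4, the gene of the stretch- and lipid-sensitive TRAAK, at 19.6 ± 23.5 CPM (SD, n = 11), against a mean of 5.51 CPM in the other 4 gates. Its log2 fold change was 1.45 ± 0.35 (SE, edgeR adjusted p = 0.00755, higher in 8 of 11 batches). In the Gzmbl3+Lpar3 gate none was higher and 2 were lower, Kcnk3 and Kcnk4. Kcnk4 averaged 3.36 ± 1.89 CPM there (SD, n = 7), with a log2 fold change of -1.82 ± 0.51 (SE, edgeR adjusted p = 0.0137, lower in 7 of 7 batches). The Ntsr1+Chrna3 gate had 1 higher, Kcnk18, and none lower, and the Th gate had none in either direction.

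UMIs were counted at the 3′ end, so counts of different genes were set side by side without division by length. On that scale Kcnk12 gave the largest share of the family's UMIs in every one of the 5 gates, from 35.9 ± 12.5% in the Sst+Nppb gate (SD, n = 11) to 54.4 ± 8.81% in the Gzmbl3+Lpar3 gate (SD, n = 7). Kcnk10, the gene of TREK-2, followed in 4 gates, with up to 26.9 ± 10.5% in the Ntsr1+Chrna3 gate (SD, n = 11). It was not called in any of the 5 gates. In the Th gate Kcnk1 came second, with 21.9 ± 5.28% (SD, n = 3) against 11.8 ± 1.87% for Kcnk10. The third-largest share was Kcnk2 in the Clmp gate (13.6 ± 8.11%, with Kcnk3 at 12.8 ± 8.75%; SD, n = 15), Kcnk4 in the Sst+Nppb gate (15.7 ± 20.0%) and Kcnk1 in the Ntsr1+Chrna3 gate (15.5 ± 7.16%). Kcnk18 made up 7.38 ± 3.79% in the Ntsr1+Chrna3 gate and 0.0914 ± 0.105% in the Clmp gate.

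**Figure D5:**
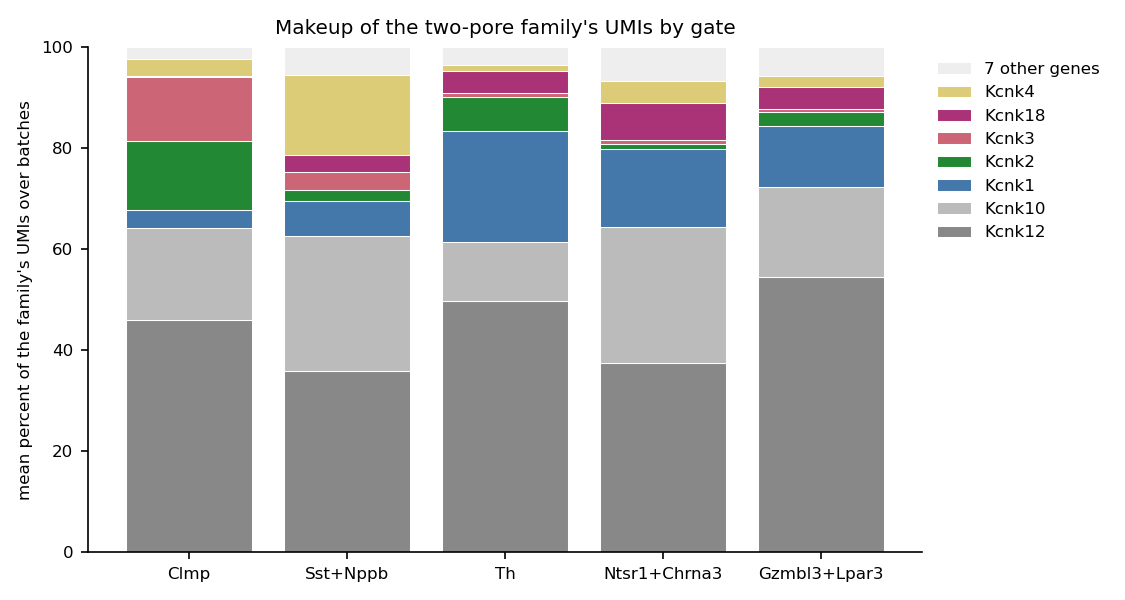
Mean percent of the two-pore family's UMIs that each gene gave, over the batch sums of each gate; bars are stacked to 100%. Kcnk12 is the largest block in every column, and the blocks of Kcnk2 and Kcnk3 are wide in the Clmp column where that of Kcnk18 is too thin to see.

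Of 32 genes listed as partners of these channels, 31 were tested. In the Clmp gate 1 was higher and 4 lower, with a median log2 fold change of -0.01 over the list and 0.05 over all genes. With 16.4% of all genes called in the Clmp gate and 12.8% in the Gzmbl3+Lpar3 gate, the counts of partners in these gates were near the background and are no result about the list. Plcb1, a phospholipase C of the signalling that closes several of these channels, was the higher one, at 35.4 CPM in the Clmp gate and 8.36 CPM in the other gates (log2 fold change 2.24 ± 0.31, SE, edgeR adjusted p = 1.35e-06, higher in 14 of 14 batches). Popdc3, a relative of proteins that bind TREK-1, was lower at 33.5 CPM in the Clmp gate and 101 CPM in the others (-1.56 ± 0.15, SE, edgeR adjusted p = 6.42e-10, lower in 14 of 14). Rcan2, a regulator of calcineurin, was lower at 33.7 CPM and 91.5 CPM in the others (-1.45 ± 0.17, SE, edgeR adjusted p = 4.77e-08, lower in 14 of 14). In the Gzmbl3+Lpar3 gate 2 were higher and 2 lower. Popdc3 was higher there (0.84 ± 0.19, SE, edgeR adjusted p = 0.00292), as was Ppp3cc, a catalytic subunit of calcineurin (0.64 ± 0.21, SE, edgeR adjusted p = 0.0342). The more abundant catalytic subunit Ppp3ca was lower (-0.50 ± 0.13, SE, edgeR adjusted p = 0.0102, 155 CPM there and 212 CPM in the others). There were 3 higher and none lower in the Sst+Nppb gate, among them the kinase gene Prkce (0.87 ± 0.26, SE, edgeR adjusted p = 0.0413) and Popdc3 (0.61 ± 0.16, SE, edgeR adjusted p = 0.0136). Of all genes, 4.04% were called higher and 1.58% lower in that gate. The Ntsr1+Chrna3 gate had none higher and 1 lower, where 0.85% of all genes were called higher and 0.604% lower. The Th gate had none, where 0.0556% of all genes were called.

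Of 26 genes of other resting conductances, 24 had a row and 13 were tested. In the Clmp gate 3 were higher and 1 lower, in the Sst+Nppb gate none was higher and 1 lower, and no member was called in the Th, Ntsr1+Chrna3 and Gzmbl3+Lpar3 gates. Of all genes, 16.4% were called in the Clmp gate, 5.62% in the Sst+Nppb gate and 12.8% in the Gzmbl3+Lpar3 gate. The shares were 1.45% in the Ntsr1+Chrna3 gate and 0.0556% in the Th gate. Kcnq5, a subunit of the M current, was at 53.8 CPM in the Clmp gate and 18.7 CPM in the others (log2 fold change 1.68 ± 0.30, SE, edgeR adjusted p = 7.13e-05, higher in 13 of 14 batches). It was lower in the Sst+Nppb gate (-1.27 ± 0.38, SE, edgeR adjusted p = 0.0385, lower in 11 of 11). Ano3, an anoctamin, was lower in the Clmp gate, at 5.75 CPM and 31.0 CPM in the others (-2.70 ± 0.43, SE, edgeR adjusted p = 1.09e-05).

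The genes whose pattern was most like each channel were ranked by Pearson correlation of log2 CPM over the 47 sums, after the mean of each batch was subtracted, among 7596 genes. These values describe sums that share gates, libraries and depth, and carry no p. For Kcnk3 they were Ifitm2 (r = 0.85), Clmp (0.84), Cd9 (0.83), Kit (0.83) and Kcnmb2 (0.82). Ifitm2 has near-identical copies and its counts are uncertain. For Kcnk2 they were Manf (0.80), Scara3 (0.80), Kcnmb2 (0.79), Clmp (0.79) and Neurod1 (0.77). Clmp is itself a gate gene, and Kcnmb2, a subunit of the BK potassium channel, was on both lists, at 24.5 CPM in the Clmp gate and 0.966 to 3.50 CPM in the others. For Kcnk18 they included Anxa1 (0.89), Cst6 (0.88), Marveld1 (0.87) and Rgs4 (0.87). For Kcnk1 they were Pdpn (0.85), Cd24 (0.83), Cst6 (0.81), Acp6 (0.80) and Perp (0.80). Cst6 was thus among the 5 of both Kcnk1 and Kcnk18, with 346 CPM in the Th and in the Ntsr1+Chrna3 gate and 54.1 CPM in the Clmp gate. For Kcnk12 the values were lower, from Trim35 (0.77) through Ptpn5 (0.70), Dner (0.69) and Stard13 (0.69) to Tmeff1 (0.67).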

How the data were processed

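Each batch had a table of UMI counts per gene and cell, which the authors deposited as whole numbers with no normalization. The submitters' processing notes name UMI-tools, STAR, Subread, featureCounts and SAMtools, and the genome build Rnor_6.0; the versions and settings are not given in the sources used here. From the deposited counts, cells with at least 2000 genes were kept, gated, and summed per batch and gate (at least 3 cells per sum, with depths of 408928 to 6853404 UMIs). Whole batches held between 3812280 and 26065847 UMIs. The file given for batch 21, labelled with 40 cells, repeated batch 20 and was left out.

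Sums were tested with edgeR 4.0.16 (R 4.3.3): filterByExpr with a minimum count of 10, TMM, gate and batch as terms, a quasi-likelihood F-test, and Benjamini-Hochberg adjustment over all 12588 genes tested, at a threshold of 0.05. Each SE is the size of the fold change on the log2 scale over the root of its F value. The fit was tested on simulated data. The batch is a term of the design because gates were compared within batches; no label says what the cells of a batch share. For the alternatives, limma 3.58.1 and DESeq2 1.42.0 were used, with other filters, scalings, gate thresholds and each batch left out. Cells were picked singly and doublets were not called, so whether some wells held RNA of several cells was not tested. Cells of several gates were left out of the main sums.

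The 5 genes and all lists were chosen with earlier results of these data known. The genes named are the 5 channels, every detected family member, up to 2 called genes per list, gate and direction with at least 20 CPM in the higher side, and the 5 genes most correlated with each channel. Of these, 1 for Kcnk18 is not reported here. Sequences and CG counts come from RefSeq's GRCr8 tables, which is not the build of the counts.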

Additional observations from a re-analysis of the deposited data

Results flagged for a closer look

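Among 10 sets of 4 to 10 batch values (each channel in the Gzmbl3+Lpar3 and the Trpm8 gate), 1 value stood apart. Kcnk18 was at 17.4 CPM in batch 22 of the Gzmbl3+Lpar3 gate, where the nearest of the other 6 batches had 7.98 CPM, a gap of 0.579 of the whole range. Chance flags about 1 in 20 such sets. The other channels of that sum lay inside the range of the remaining batches, apart from Kcnk2, which was at its highest there with 10.6 CPM.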

How the results depend on the processing

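All alternatives except 2 were planned; sums of at least 1 cell, with or without assigning cells of several gates, were added after the data were seen. Of 705 log2 fold changes of the 5 channels under an alternative, 631 kept their direction and side of the threshold, 30 lost a call, 24 gained one and 20 changed sign. Kcnk2 and Kcnk3 kept their calls in the Clmp gate under each of 13 alternatives and without each of 16 batches, from 2.09 to 4.30 for Kcnk2 and 2.94 to 4.89 for Kcnk3. Without each batch in turn, the log2 fold change in the Clmp gate ran from 2.40 to 3.12 for Kcnk2, 3.54 to 4.02 for Kcnk3, -2.40 to -1.92 for Kcnk1 and -5.15 to -4.67 for Kcnk18, and all stayed called. Kcnk18 in the Ntsr1+Chrna3 gate ran from 2.13 to 2.55 and stayed called, Kcnk12 in the Sst+Nppb gate from -0.80 to -0.61, and Kcnk3 in the Gzmbl3+Lpar3 gate from -3 to -1.93. The last lost its call without batch 20, 22, 24, 28-1, 28-3, 29, 30, 32, 33, 34 or 35 (adjusted p up to 0.113).

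Calls were lost as follows; fewer sums entered several of these fits, and the cause was not tested. Thinned to 30000 UMIs, Kcnk12 alone of the 5 passed the filter on low counts, and it stayed called in the Sst+Nppb gate at -0.74. With gate genes at 100 CPM or more, Kcnk1 in the Clmp gate was at -1.68, Kcnk18 in the Clmp gate at -3.71, Kcnk12 in the Sst+Nppb gate at -0.93 and Kcnk3 in the Gzmbl3+Lpar3 gate at -2.63. Without cells at 1000 CPM or more of glial markers they were at -1.69, -4.71 (still called), -0.82 and -1.05, and Kcnk18 in the Ntsr1+Chrna3 gate was at 4.12. With gate genes at 10 CPM or more, Kcnk12 was at -0.63 and Kcnk3 at -2.15; with at least 5 cells per sum, at -0.64 and -2.04. Kcnk3 in the Gzmbl3+Lpar3 gate also lost its call at -1.66 with cells of several gates assigned, at -2.20 with cells of at least 4000 genes and at -1.40 with sums of at least 1 cell.

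Signs changed for uncalled values only. In the Sst+Nppb gate Kcnk3, at 0.06, was at -0.02 and -0.59 with gate genes at 10 and 100 CPM, -0.57 with cells assigned, -0.19 with 5 cells per sum, -0.29 without glia-rich cells, -0.66 and -0.26 with 1 cell per sum with and without assignment, and -0.03 and -0.55 without batches 24 and 25 (-0.55 to 0.27 without each batch). Kcnk18 there, at -0.50, was at 0.17 with no replicate block (no batch term), 0.10 and 1.06 with gate genes at 10 and 100 CPM, 0.45 with 5 cells per sum and 0.05 with 1 cell per sum and assignment. Kcnk1 there was at 0.01 with gate genes at 10 CPM. Kcnk3 in the Th gate was at 0.21 with limma voom and 0.72 without batch 25 (-1.06 to 0.72 without each batch). With 1 cell per sum and assignment, Kcnk12 in the Ntsr1+Chrna3 gate was at 0.03 and Kcnk1 in the Gzmbl3+Lpar3 gate at -0.02; Kcnk2 in the Gzmbl3+Lpar3 gate was at 0.48 without glia-rich cells.

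Counts of all genes called moved more. The Sst+Nppb count of 707 was 1116 with DESeq2, 1462 with limma voom, 180 with gate genes at 10 CPM, 1095 with cells assigned, 440 with 5 cells per sum, 435 thinned to 30000 UMIs, 239 without glia-rich cells, 1120 with 1 cell and assignment, and 408 (without batch 25) to 745 without each batch. The Clmp count of 2064 was 3131 with limma voom, 1113 thinned, 1357 without glia-rich cells, 878 and 859 with 1 cell per sum with and without assignment, and 1650 to 2221 without each batch. The Th count of 7 was 140 with DESeq2, 21 with limma voom, 246 with no filter on low counts, 34 with no replicate block, 107 with cells assigned, 265 and 120 with 1 cell per sum with and without assignment, and 0 (without batch 25) to 13 (without batch 27) without each batch. The Ntsr1+Chrna3 count of 183 was 482 with DESeq2, 730 with limma voom, 534 with no filter, 323 with cells assigned, 447 with 1 cell and assignment, and 91 (without batch 20) to 242 without each batch. The Gzmbl3+Lpar3 count of 1606 was 2629 with limma voom, 969 and 455 with gate genes at 10 and 100 CPM, 2489 with cells assigned, 389 with 5 cells per sum, 772 thinned, 132 without glia-rich cells, 2800 with 1 cell and assignment, and 1271 to 1641 without each batch. The Th, Trpm8, Nmu+Lad1 and Pvalb+Vsnl1 gates hold few cells, and depth limits what can be said of genes at 0 there.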

Other observations

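Some single sums departed from their gate in more than one channel. In the Clmp gate, batch 27 had the highest Kcnk1 of 15 batches (33.1 CPM) together with the lowest Kcnk2 (3.57 CPM) and the lowest Kcnk12 (33.1 CPM), while its Kcnk3 was at 34.7 CPM, above the median of the gate. The Sst+Nppb sum of the same batch 27 held the highest Kcnk18 of that gate (25.7 CPM), the next being 8.98 CPM in batch 20. In the Sst+Nppb gate Kcnk1 was at 17.2 CPM or more in batches 27, 31, 34 and 35 and at or under 6.09 CPM in the other 7. Kcnk4, the family gene called higher in this gate, ran from 1.28 to 86.0 CPM over its 11 batches. In the Th gate batch 25 had Kcnk2 at 0.991 CPM, against 38.6 CPM in batch 33 and 21.8 CPM in batch 34. None of these patterns carries a test.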
